A study of Mus musculus with 8 samples.

Results

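The genes described here are 5 connexin genes, Gjb1, Gjb2, Gjb5, Gjb6 and Gja1, chosen by symbol from the 55335 genes listed for each library. RNA was measured in mouse prostate epithelium sorted as EpCAM+, CD24A+ and CD49Flow cells, in 8 libraries that form 4 groups of 2. All animals shared 1 altered prostate genotype, here called PP as in the labels, and no group without it was analysed here. PP sham was PP with sham treatment at 3.5 months of age, and PPK sham was PP with Kmt2cPC-/- added, also with sham treatment at 3.5 months. PP ADT was PP, and PPK ADT was PP with Kmt2cPC-/- added, both with ADT at 6.5 months. ADT, androgen deprivation therapy, lowers the hormone that luminal prostate cells depend on. How ADT was done, or which promoter drove the deletion that "PC" stands for, is not given in the labels used here. Treatment and age differed together, so their effects cannot be told apart, and each ADT difference is one of ADT with age. The labels mark the libraries of a group A and B without saying whether they came from separate animals. The p-values therefore cover no more than library-to-library spread, which may be technical.

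Connexins are membrane proteins that assemble into channels, and channels of neighbouring cells dock to form gap junctions through which ions and small molecules pass. Gjb1 encodes Cx32, a connexin of secretory and other simple epithelia such as liver, and in the prostate it is known from luminal cells. Gja1 encodes Cx43, known from basal cells of the prostate, from epidermis, and also from fibroblasts and smooth muscle. Gjb2 encodes Cx26, Gjb6 Cx30 and Gjb5 Cx31.1, all of them known from epidermis, and mutations of human GJB2 and GJB6 cause hearing loss and skin disease.

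The sequence in front of each gene is shown because neighbouring and related members were read at very different levels. Each line gives the 250 bases before a RefSeq start on GRCm38.p6, read 5′ to 3′ on the gene's strand. For Gjb1 the outermost of 4 RefSeq starts is shown, and the FPKM of a whole gene cannot tell its starts apart. All 5 members had a window in the RefSeq table, and the lines give the gene whose level fell, the gene that rose most, and the neighbours Gjb2 and Gjb6. Capitals mark matches, on either strand, to any of 6 motifs: the GC box GGGCGG, the TATA motif TATAAA, the AP-1 motif TGANTCA, the CCAAT motif, the forkhead motif TGTTTAC and the steroid receptor motif AGAACA.
Gjb1 chrX:101376126-101376375, plus strand: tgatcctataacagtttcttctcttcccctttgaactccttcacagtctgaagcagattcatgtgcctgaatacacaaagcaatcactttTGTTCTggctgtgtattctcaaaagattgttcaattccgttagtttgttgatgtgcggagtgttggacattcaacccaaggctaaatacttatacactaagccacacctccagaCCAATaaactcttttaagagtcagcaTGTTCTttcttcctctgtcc
Gja1 chr10:56377050-56377299, plus strand: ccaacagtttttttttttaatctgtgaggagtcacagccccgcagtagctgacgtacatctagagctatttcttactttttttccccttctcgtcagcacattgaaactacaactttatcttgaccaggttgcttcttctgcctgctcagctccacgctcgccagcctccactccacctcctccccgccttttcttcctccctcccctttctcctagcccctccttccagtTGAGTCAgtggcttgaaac
Gjb2 chr14:57104703-57104952, minus strand: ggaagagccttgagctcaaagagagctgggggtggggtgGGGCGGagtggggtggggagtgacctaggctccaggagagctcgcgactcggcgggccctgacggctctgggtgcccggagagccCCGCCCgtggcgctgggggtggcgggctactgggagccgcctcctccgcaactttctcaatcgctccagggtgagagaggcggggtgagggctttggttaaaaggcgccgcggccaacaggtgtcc
Gjb6 chr14:57133612-57133861, minus strand: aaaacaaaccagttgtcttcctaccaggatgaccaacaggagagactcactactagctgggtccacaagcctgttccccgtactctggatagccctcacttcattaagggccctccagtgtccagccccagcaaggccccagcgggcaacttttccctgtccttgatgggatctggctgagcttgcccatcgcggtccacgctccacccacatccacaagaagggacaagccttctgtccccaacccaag

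These windows differed in composition and in the motifs they held. The Gjb2 window was 69.2% G and C with 18 CG pairs, and 78.3% of all 32851 windows had fewer such pairs. It held the GC box 2 times, a motif present in 32.7% of all windows. The Gjb6 window, in front of the neighbouring gene, was 56.8% G and C with 5 CG pairs and held none of the 6 motifs. The Gja1 window held an AP-1 motif 19 to 13 bases before the start, and 6.75% of all windows hold that motif. The outermost Gjb1 window was 40.4% G and C with 2 CG pairs, and held CCAAT, present in 33.8% of windows, and AGAACA 2 times, present in 16.1%. The other Gjb1 starts differed from it: the innermost window was 58.4% G and C with 10 CG pairs, and held the GC box 3 times, TATAAA and AGAACA 2 times. No 2 of these motif matches overlapped. A match is a stretch of letters, and binding was not measured here.

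Levels are FPKM as deposited, that is, fragment numbers scaled by the gene's length and the library's size. They are given per library or as mean ± SD (n = 2), and since they are scaled by gene length they can be set side by side between genes. The tables hold no counts, so the depth of the libraries is unknown. Summed FPKM was 284015 to 333977 per library, and 0 of 15 housekeeping genes checked were listed at 0 in any library. Kmt2c, the histone methyltransferase gene targeted in PPK, had an FPKM of 13.3 and 13.9 in PP sham, 8.67 and 8.15 in PPK sham, 10.3 and 9.33 in PP ADT, and 6.60 and 6.36 in PPK ADT. It was lower in PPK but not absent. The epithelial gene Epcam was read at 310 to 565 FPKM in all libraries.

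Tests were made on log2(FPKM + 1) with limma over 14000 genes that reached 1 FPKM in at least 2 libraries, and a gene passed with an adjusted p under 0.05. The added 1 makes a log2 fold change understate the change of low genes. Of the 5 members, Gjb1, Gjb2, Gjb6 and Gja1 were tested and Gjb5 was not. Gjb6 reached the minimum through the PPK ADT libraries alone. Log2 fold changes are given ± SE. The 4 pairwise comparisons share libraries, so they are not independent of each other.

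Gjb1, the luminal connexin, was highest in PP sham and lower wherever Kmt2c was targeted or ADT was given. Its FPKM was 11.8 and 11.3 in PP sham, 4.74 and 6.79 in PPK sham, 5.29 and 5.15 in PP ADT, and 1.59 and 2.44 in PPK ADT. Both PP sham libraries stood above all others, both PPK ADT libraries stood below all others, and PPK sham and PP ADT overlapped. From PP sham to PPK ADT the mean level was 5.73-fold lower.

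Gja1 went the other way and over a far wider range. Its FPKM was 1.05 and 1.22 in PP sham, 4.38 and 3.66 in PPK sham, 4.81 and 5.02 in PP ADT, and 76.5 and 76.6 in PPK ADT. No groups overlapped, but PPK sham and PP ADT were apart by less than the range of their libraries. The mean in PPK ADT was 67.6-fold that in PP sham.

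Gjb2 was the most abundant of the 5 members in PP sham, at 18.5 and 18.1 FPKM, above Gjb1. It was read at 24.4 and 24.5 FPKM in PPK sham, 41.8 and 37.7 in PP ADT, and 35.3 and 34.8 in PPK ADT. All ADT libraries stood above all sham libraries. Within ADT the order of genotypes was turned round, with PP above PPK by a gap smaller than the range of the libraries involved.

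Gjb6 and Gjb5, connexins known from epidermis, stayed low in all groups. The FPKM of Gjb6 was 0.0768 and 0.341 in PP sham, 0.0422 and 0.121 in PPK sham, 0.948 and 0.647 in PP ADT, and 1.40 and 1.13 in PPK ADT. Gjb5 was at 0 in PP sham A and B, and read at 0.0945 and 0.0654 FPKM in PPK sham, 0.185 and 0.108 in PP ADT, and 0.311 and 0.560 in PPK ADT. The groups of Gjb5 did not overlap, but every value was under the minimum for testing. Of Gjb6 the sham groups overlapped, and the ADT groups stood above them.

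**Figure D1:**
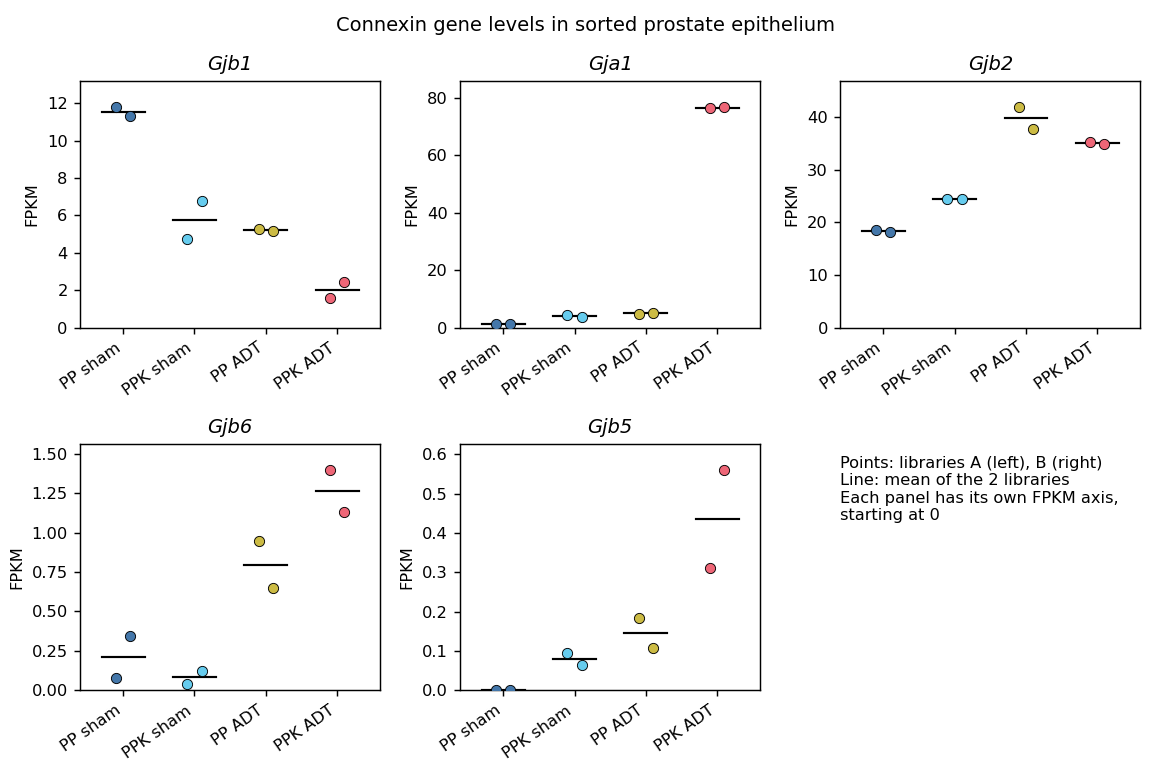
FPKM of each connexin gene in the 8 libraries, with a point per library (A left, B right) and a line at the mean of each group. Each panel has its own linear axis that starts at 0. Gjb1 falls from 11.8 and 11.3 in PP sham to 1.59 and 2.44 in PPK ADT, while Gja1 rises from 1.05 and 1.22 to 76.5 and 76.6, and Gjb6 reaches no more than 1.40.

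The first comparison asked how the connexin genes differed between PPK and PP in sham mice. Of the 4 members tested, 2 were higher (Gja1 and Gjb2), 1 was lower (Gjb1) and 1 did not pass (Gjb6). Over all genes tested, 13.7% were called higher and 14.9% lower in this comparison. Gja1 was 4.02 ± 0.512 against 1.13 ± 0.12 FPKM, a 3.55-fold higher mean (log2 fold change 1.23 ± 0.0839, limma adjusted p = 0.000126). Gjb1 was 5.77 ± 1.45 against 11.5 ± 0.33 FPKM, a log2 fold change of -0.91 ± 0.177 (limma adjusted p = 0.0104). That call was close to the threshold and was lost without PP sham A, where the log2 fold change was -0.88. The log2 fold change was -0.93 without PP sham B, -0.69 without PPK sham A and -1.13 without PPK sham B. Gjb2 was 24.5 ± 0.0403 against 18.3 ± 0.29 FPKM, a smaller difference of 0.40 ± 0.0527 on the log2 scale (limma adjusted p = 0.00208). For Gjb6 the log2 fold change was -0.15, with a 95% interval of -0.508 to 0.201 (limma adjusted p = 0.493).

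The same comparison in ADT mice asked whether the genotypes also differed after treatment. There 1 of 4 tested members was higher (Gja1), 2 were lower (Gjb1 and Gjb2) and 1 did not pass (Gjb6, tested only because PPK ADT reached the minimum), where 32.5% of all genes tested were called higher and 27.1% lower. Gja1 was 76.6 ± 0.127 FPKM in PPK ADT against 4.91 ± 0.15 in PP ADT, a 15.6-fold higher mean (log2 fold change 3.71, limma adjusted p = 2.17e-07). Gjb1 was 2.59-fold lower in the mean, with a log2 fold change of -1.06 ± 0.177 (limma adjusted p = 0.00217). Gjb2 was 35.1 ± 0.355 against 39.7 ± 2.92 FPKM, a log2 fold change of -0.17 (limma adjusted p = 0.0272). This small difference was lost without PP ADT A (limma adjusted p = 0.106), without PPK ADT A (0.0759) or without PPK ADT B (0.102). It was also lost with only the ADT groups in the fit (limma adjusted p = 0.0714) or with no mean-variance trend (0.0557). For Gjb6 the log2 fold change was 0.33, with a 95% interval of -0.0201 to 0.69 (limma adjusted p = 0.0931).

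ADT with age was next set against sham within each genotype. In PP, 3 of 4 tested members were higher (Gja1, Gjb2 and Gjb6) and 1 was lower (Gjb1), where 19% of all genes tested were called higher and 25.1% lower. Gja1 was 4.34-fold higher in the mean (log2 fold change 1.47, limma adjusted p = 2.5e-05) and Gjb2 2.17-fold higher (limma adjusted p = 1.3e-05). Gjb1 was 5.22 ± 0.0962 FPKM in PP ADT, 2.21-fold lower than in PP sham (log2 fold change -1.01 ± 0.177, limma adjusted p = 0.00427). Gjb6 was 0.798 ± 0.213 against 0.209 ± 0.187 FPKM, a log2 fold change of 0.58 (limma adjusted p = 0.0199). The Gjb6 call was lost without PP sham A (0.42, limma adjusted p = 0.0961), without PP ADT A (0.45, 0.101) and with only the PP groups in the fit (0.0512). With a pseudocount of 0.1 the log2 fold change of Gjb6 was 1.66.

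In PPK, 2 members were higher (Gja1 and Gjb2) and 1 was lower (Gjb1), where 32% of all genes tested were called higher and 30.7% lower. Gja1 was 19.0-fold higher in the mean, a log2 fold change of 3.95 (limma adjusted p = 1.28e-07). Gjb1 was 2.86-fold lower, at 2.02 ± 0.595 FPKM (log2 fold change -1.16 ± 0.177, limma adjusted p = 0.00131). Gjb2 was 1.43-fold higher (log2 fold change 0.50, limma adjusted p = 0.000216). Gjb6 was 1.26 ± 0.19 against 0.0814 ± 0.0554 FPKM, a log2 fold change of 1.06, or 2.94 with a pseudocount of 0.1. It is left out of that count and given with no p, because only the PPK ADT libraries brought it into the test.

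The last test took the genotype effect in ADT minus that in sham. Of the 4 members tested, 1 differed upward (Gja1), 1 downward (Gjb2) and 2 did not pass (Gjb1 and Gjb6), where 30% of all genes tested were called higher and 22.8% lower. For Gja1 the genotype effect was larger under ADT by 2.48 ± 0.119 on the log2 scale (limma adjusted p = 8.39e-06). For Gjb2 it was more negative by -0.57 ± 0.0745 (limma adjusted p = 0.000866). For Gjb1 the difference was -0.15 ± 0.251 with a 95% interval of -0.756 to 0.452 (limma adjusted p = 0.643), and the interval spans 0. For Gjb6 it was 0.49 ± 0.208, with an interval of -0.0137 to 0.99 (limma adjusted p = 0.0927), and without PP sham A it was 0.65. Nothing is read from these Gjb6 values, because only the PPK ADT libraries brought the gene into the test.

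**Figure D2:**
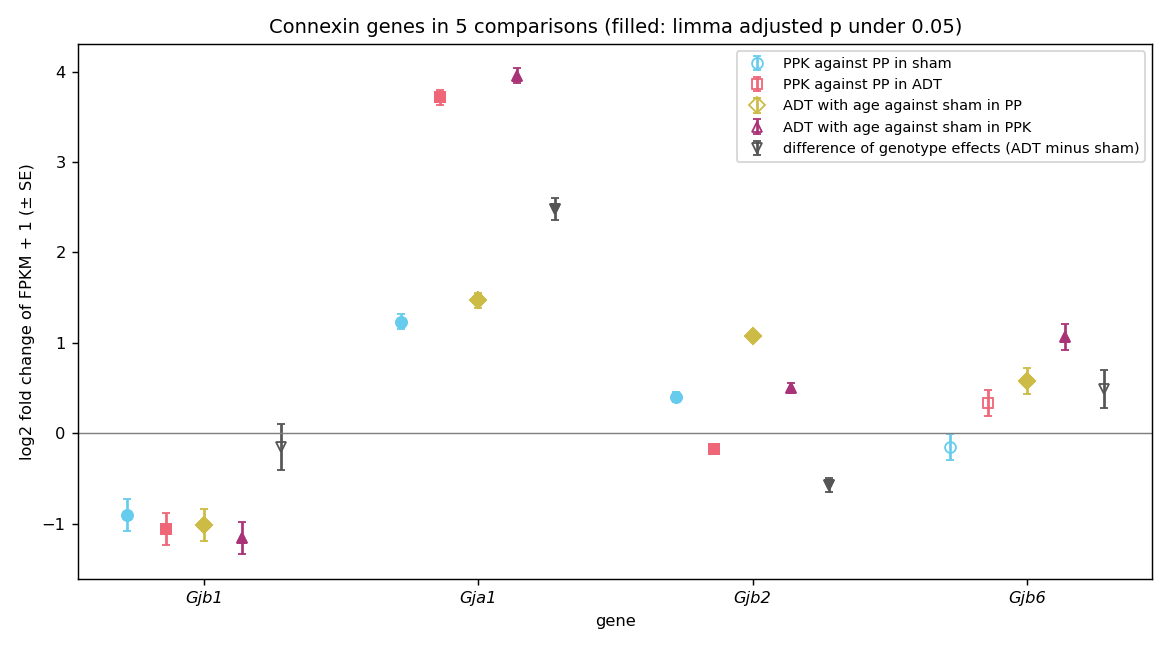
Log2 fold changes of FPKM + 1 from limma for the 4 tested connexin genes in the 5 comparisons, with bars of ± 1 SE, a line at 0 and filled symbols where the adjusted p was under 0.05. Gja1 lies above 0 throughout, at 3.71 between genotypes in ADT, Gjb1 lies below 0 in the 4 pairwise comparisons, and Gjb2 changes side between sham (0.40) and ADT (-0.17).

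Besides the 5 members, 12 other connexin genes were read, and 0 of the 12 reached the minimum for testing. Gja10, Gjd2, Gjd4 and Gje1 were listed at 0 in all 8 libraries. Gja4, a connexin known from blood vessels, was read at 0.0854 to 0.686 FPKM, and Gja5 at no more than 0.462. Gjc3, a connexin known from glia, was read at no more than 0.0841 FPKM. The pannexins, a separate family of channel proteins, had 1 of 3 genes tested: Panx1 was read at 1.81 to 2.96 FPKM and passed in none of the 5 comparisons.

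The share of each member in the summed FPKM of the 5 genes was taken as a description, with no test. The sum was 31.42 and 30.97 FPKM in PP sham, 33.69 and 35.13 in PPK sham, 53.02 and 48.58 in PP ADT, and 115.1 and 115.6 in PPK ADT. Gjb1 made up 37.5 and 36.5% of it in PP sham, 14.1 and 19.3% in PPK sham, 9.97 and 10.6% in PP ADT, and 1.39 and 2.11% in PPK ADT. Gja1 made up 3.34 and 3.93%, 13.0 and 10.4%, 9.06 and 10.3%, and 66.5 and 66.3% in the same groups. Gjb2 held the largest share of the 5 in 3 of the 4 groups, and Gja1 did in PPK ADT. Gjb2 made up 58.9 and 58.5% in PP sham and 30.7 and 30.1% in PPK ADT, although its own level was higher there. Gjb6 made up at most 1.79% and Gjb5 at most 0.485% in any library.

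The ratio of Gjb1 to Gja1 sets the luminal against the basal connexin within a library. On the log2 scale of FPKM + 1 it was 2.64 and 2.47 in PP sham, 0.0926 and 0.742 in PPK sham, 0.115 and 0.0318 in PP ADT, and -4.90 and -4.50 in PPK ADT. Gjb1 was thus above Gja1 in PP sham, near it in PPK sham and PP ADT, and far below it in PPK ADT. The ratio of Gjb1 to Gjb2 was already below 0 in PP sham, at -0.611 and -0.634. It was -2.15 and -1.71 in PPK sham, -2.77 and -2.65 in PP ADT, and -3.81 and -3.38 in PPK ADT.

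**Figure D3:**
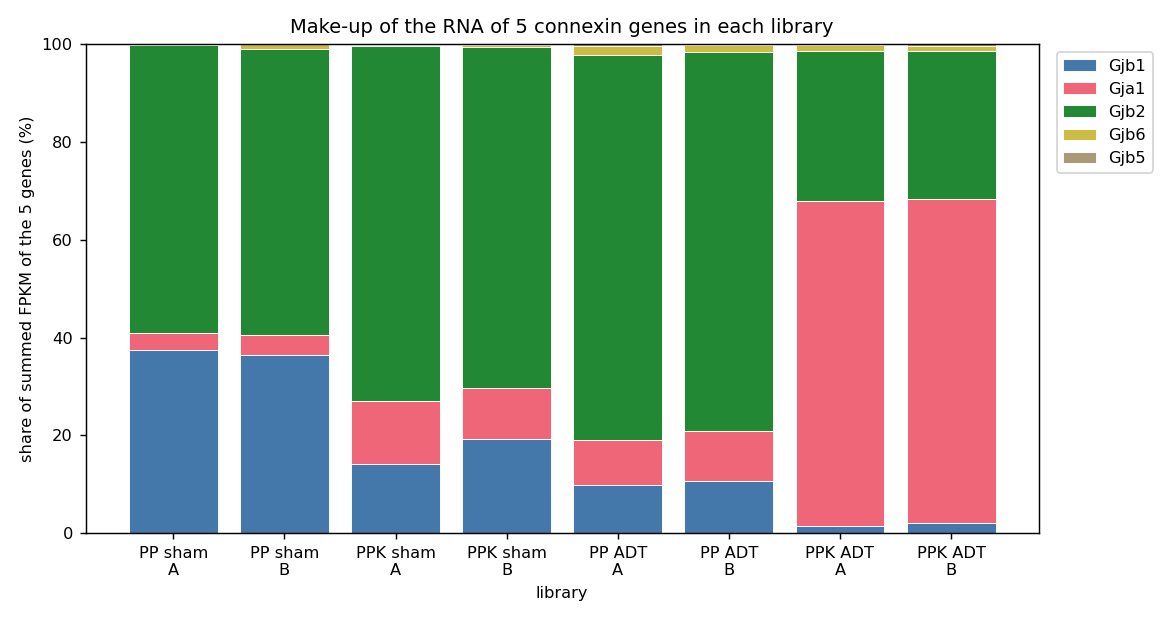
Stacked bars, from 0 to 100%, of the summed FPKM of the 5 members held by Gjb1, Gja1, Gjb2, Gjb6 and Gjb5 in each of the 8 libraries. Gjb1 shrinks from 37.5 and 36.5% in PP sham to 1.39 and 2.11% in PPK ADT, where Gja1 reaches 66.5 and 66.3%.

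Markers of cell types are given here beside the connexins. Summed FPKM of the basal list (Krt5, Krt14, Krt15, Trp63, Itga6 and Itgb4) was 894 to 901 in PP sham, 1360 to 1370 in PPK sham, 869 to 880 in PP ADT, and 5790 to 5860 in PPK ADT. That of the luminal list was 5000 to 5070, 4780 to 4860, 5740 to 5800, and 1800 to 1830. In PP sham, PPK sham and PP ADT most of the basal sum was Krt15, another basal keratin gene. The FPKM of Krt15 was 812 and 807 in PP sham, 1266 and 1279 in PPK sham, 698 and 705 in PP ADT, and 950 and 981 in PPK ADT. Of the 6 basal genes, 3 were higher and 2 lower in PPK sham against PP sham, where 13.7% of all genes were called higher. In PP ADT against PP sham 5 were higher and 1, Krt15, was lower, as the sum was, and 19% of all genes were called higher. The FPKM of Krt5, a basal keratin gene, was 30.0 and 27.1 in PP sham, 22.0 and 21.0 in PPK sham, 94.3 and 96.8 in PP ADT, and 3242 and 3243 in PPK ADT. The luminal keratin gene Krt8 was read at 1263 and 1264, 1337 and 1346, 1856 and 1883, and 294 and 286. The basal sum was thus highest, and the luminal sum lowest, in PPK ADT, the group with the highest Gja1 and the lowest Gjb1. In other groups they did not move together. In PPK sham Gja1 was higher and Gjb1 lower than in PP sham, while Krt5 read lower and Krt8 read higher. In PP ADT Gjb1 was lower than in PP sham while the luminal sum was higher, and Gja1 was higher while the basal sum was lower. In such bulk samples fewer cells of a type and less RNA per cell cannot be told apart.

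Several markers of keratinocytes that differentiate were high in PPK ADT, where Gjb6 and Gjb5 were still low. The summed list of 11 suprabasal and cornifying genes was 3440 to 3510 FPKM in PPK ADT, 708 to 726 in PP ADT, 514 to 524 in PPK sham and 786 to 795 in PP sham. Of 10 tested genes, 9 were higher in PPK under ADT, where 32.5% of all genes were called higher, and Sbsn did not pass (0.23, limma adjusted p = 0.103). Among the 9 was Sprr1b, which was tested only because the PPK ADT libraries reached the minimum. Krt10, a keratin of suprabasal epidermis, was read at 1222 and 1228 FPKM in PPK ADT and at 7.57 and 7.95 in PP ADT. Not all listed genes stood out: Lor, which encodes the cornified envelope protein loricrin, was read at 0.352 and 0.391 FPKM in PPK ADT. Sprr1a, which encodes another envelope protein, was read at 519 and 545 FPKM in PPK ADT and at 538 and 533 in PP sham. In those PPK ADT libraries Gjb6 stood at 1.40 and 1.13 FPKM and Gjb5 at 0.311 and 0.560.

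Gja1 is also known from stromal cells, so their markers were read in the same libraries. The cells were sorted as EpCAM+, CD24A+ and CD49Flow, and how many stromal cells remained after the sort was not tested. The summed fibroblast list was 6.09 to 6.66 FPKM in PP sham, 19.6 to 21.0 in PPK sham, 5.32 to 5.38 in PP ADT, and 32.5 to 33.8 in PPK ADT. Of 7 fibroblast genes 6 were tested, and in PPK against PP 5 were higher in sham and 6 in ADT, beside 13.7% and 32.5% of all genes. All of the 6 but Dcn reached 1 FPKM only in PPK libraries, so these counts cannot be read against those shares. In PPK ADT against PPK sham 5 of the 6 were higher as well, beside 32% of all genes. Among these, Lum was at 1.09 and 0.90 FPKM in PPK sham and at 2.84 and 3.72 in PPK ADT. Lum met the minimum through PPK ADT, so this count cannot be read against that share. The smooth muscle list summed to 2.07 to 2.09, 5.59 to 5.94, 1.77 to 2.31, and 11.8 to 11.9 FPKM. No gene of either list was at 0 in both libraries of a group. These markers moved with Gja1 between genotypes and with ADT in PPK, and their part in those results was not tested. Col1a1, a defining fibroblast gene, was read at 7.68 and 6.91 FPKM in PPK ADT, where Gja1 was at 76.5 and 76.6. In PP ADT against PP sham, where Gja1 was higher, 0 of the 6 fibroblast genes were higher and 3 were lower. These 3, Col1a1, Col1a2 and Col3a1, were under 1 FPKM in all PP sham and PP ADT libraries. Of the 2 smooth muscle genes tested, Acta2 was higher (0.37, limma adjusted p = 0.0386) and Tagln was lower (-0.50, limma adjusted p = 0.0164). Over all genes tested, 19% were called higher and 25.1% lower, and the fibroblast count cannot be read against these shares either. Endothelial genes summed to 0.392 to 3.60 FPKM over all libraries. Macrophage genes summed to 12.4 to 12.9 FPKM in PP sham, 25.7 to 26.2 in PPK sham, 23.1 to 25.3 in PP ADT, and 21.0 to 23.1 in PPK ADT. Of 5 macrophage genes 2 were tested (Cd68 and C1qa), and both were higher in PPK sham and in PP ADT than in PP sham. Of all genes tested, 13.7% and 19% were called higher there. Gja1 and Gjb2 were also higher in these comparisons, and the part of macrophage RNA in that was not tested. The neural and glial genes summed to 0.373 to 0.946, and 0 of 4 were tested.

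**Figure D4:**
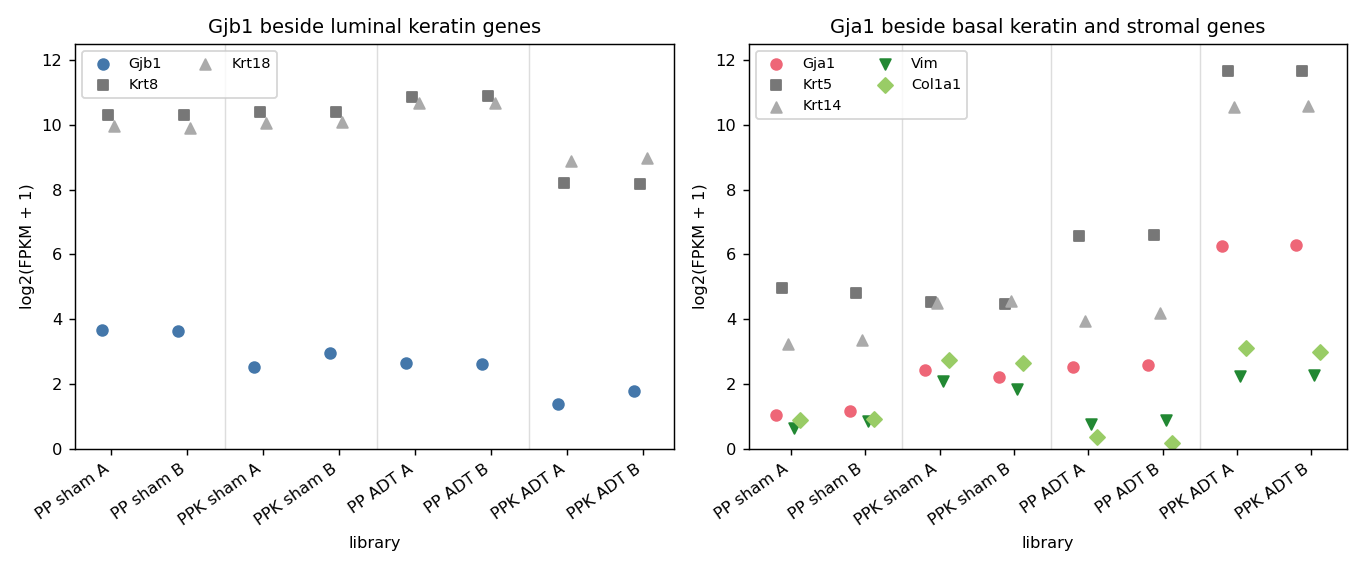
Log2(FPKM + 1) in each of the 8 libraries, for Gjb1 beside the luminal keratin genes Krt8 and Krt18 (left), and for Gja1 beside the basal keratin genes Krt5 and Krt14 and the stromal genes Vim and Col1a1 (right). Krt5 reaches 3242 and 3243 FPKM in PPK ADT, where Gja1 is at 76.5 and 76.6 and Col1a1 at 7.68 and 6.91.

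Proteins that bind connexins, assist their assembly or remove them were read as a list of 15 genes, of which 13 were tested and Cav1 and Ccn3 were not. In PPK against PP, 1 was higher and 2 were lower in sham, and 1 was higher and 5 were lower in ADT. After ADT with age 5 were higher and 2 lower in PP, and 5 were higher and 4 lower in PPK. In the difference of effects 1 was higher and 5 were lower. The shares over all genes tested, higher and lower, were 13.7% and 14.9%, 32.5% and 27.1%, 19% and 25.1%, 32% and 30.7%, and 30% and 22.8% in the same order, and nothing particular to the list is read from its counts. The median log2 fold change of the 13 genes was 0.02, -0.14, 0.17, 0.04 and -0.17 in these comparisons, beside -0.02, 0.05, -0.07, 0.00 and 0.09 over all genes tested.

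Tjp3, which encodes the junction scaffold ZO-3, and Prkca, a kinase that phosphorylates Cx43, had the smallest adjusted p of the list in several comparisons. The FPKM of Tjp3 was 70.3 and 68.8 in PP sham, 89.8 and 86.7 in PPK sham, 64.7 and 65.9 in PP ADT, and 19.2 and 19.9 in PPK ADT. It was higher in PPK in sham (0.34, limma adjusted p = 0.000754) and lower in ADT (-1.69 ± 0.0352, limma adjusted p = 1.62e-07), a difference of effects of -2.03 (limma adjusted p = 5.68e-07). Its change with ADT in PPK was -2.12 (limma adjusted p = 4.93e-08). The FPKM of Prkca was 19.6 and 19.1 in PP sham, 10.8 and 10.2 in PPK sham, 5.78 and 6.46 in PP ADT, and 2.23 and 1.70 in PPK ADT. It was lower in all pairwise comparisons, by -0.82 and -1.27 between genotypes in sham and ADT (limma adjusted p = 0.00142 and 5.64e-05). With ADT its log2 fold change was -1.52 in PP and -1.96 in PPK (limma adjusted p = 4.68e-05 and 6.27e-06). As for Gjb1, PP sham was highest and PPK ADT lowest.

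Other genes of the list moved with ADT. Nedd4, a ubiquitin ligase that marks Cx43 for removal, was higher by 0.85 ± 0.0466 in PP and by 0.70 in PPK (limma adjusted p = 2.13e-05 and 2.27e-05). Dbn1, whose actin-binding product drebrin binds Cx43, was higher by 1.36 in PP and by 1.47 in PPK (limma adjusted p = 0.000117 and 3.85e-05). Tjp1, which encodes ZO-1, the scaffold at gap junction borders, had an FPKM of 42.0 and 41.4 in PP sham and of 58.6 and 57.9 in PP ADT (log2 fold change 0.47, limma adjusted p = 0.000137). Its genotype effect was more negative under ADT by -0.30 (limma adjusted p = 0.00432).

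Erp29, a chaperone of Cx43 in the endoplasmic reticulum, was lower in PPK in sham (-0.31, limma adjusted p = 0.028) and higher in ADT (0.74, limma adjusted p = 0.000229). The difference of these effects was 1.05 (limma adjusted p = 0.000312). With ADT it was lower in PP (-0.60, limma adjusted p = 0.00113) and higher in PPK (0.45, limma adjusted p = 0.00239), so Erp29 passed in all 5 comparisons. Tsg101, of the sorting machinery that carries membrane proteins to lysosomes, was lower in PPK in ADT (-0.44, limma adjusted p = 0.000543).

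Members that lie close together on a chromosome were read at very different levels. Gjb2 (ENSMUSG00000046352, chr14:57098600-57104702, minus strand, GRCm38) and Gjb6 (ENSMUSG00000040055, chr14:57123303-57133611, minus strand) are 18600 bases apart. Gjb2 was read at 18.1 to 41.8 FPKM and Gjb6 at 0.0422 to 1.40. Gja3, a connexin of the eye lens, lies 40499 bases from Gjb2 and was read at no more than 0.124 FPKM. Gjb5 (ENSMUSG00000042357) lies at chr4:127354809-127358181 on the minus strand. Gjb1 (ENSMUSG00000047797, chrX:101376378-101385629, plus strand) and Gja1 (ENSMUSG00000050953, chr10:56377330-56402513, plus strand) lie on other chromosomes. The GENCODE annotation gives each member 1 exon that holds its whole coding sequence, of 678 bases for Gjb2, 849 for Gjb1 and 1146 for Gja1.

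The nearest tested genes outside the family were read as well. For Gjb1 these were Med12 and Zmym3, and for Gjb2 and Gjb6 they were Zmym2 and Cryl1, none of which passed in any of the 5 comparisons. Tbc1d32, at 148641 bases from Gja1, passed only in PPK ADT against PPK sham, where it was lower (-0.39, limma adjusted p = 0.00529). Hsf2, on the other side at 1083872 bases, was higher in PPK in ADT (0.47, limma adjusted p = 0.00266) and lower with ADT in PP (-0.82, limma adjusted p = 0.000345). Its difference of effects was 0.74 (limma adjusted p = 0.00212). Phc2, at 1296521 bases from Gjb5, passed in all 5 comparisons, with opposite signs between genotypes in sham (0.33) and ADT (-0.65). No annotated gene overlaps a member, and no stretch of 31 bases was shared by any of the 10 pairs of members.

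**Figure D5:**
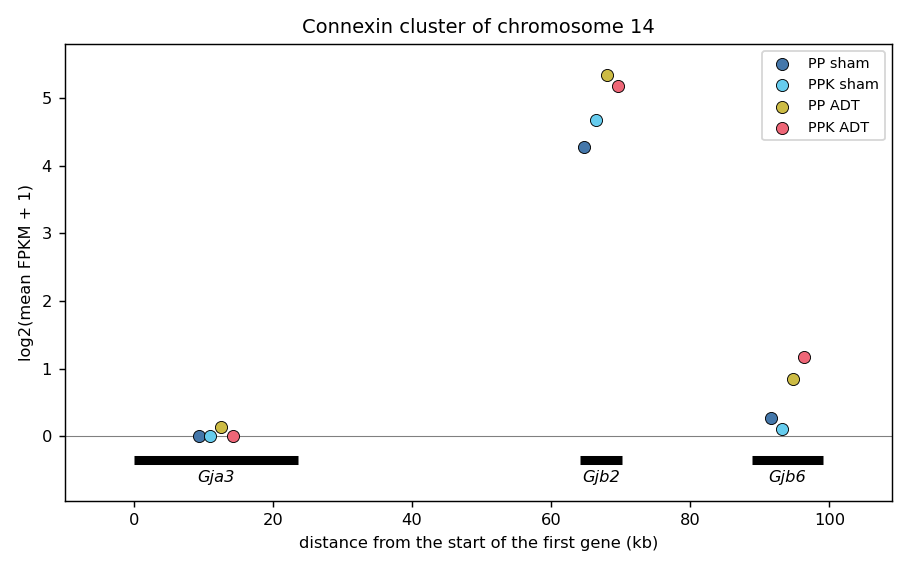
Log2 of the group mean FPKM + 1 for Gja3, Gjb2 and Gjb6 on chromosome 14 against distance in kb from the start of the first gene. Black bars are the genes, and the points of the 4 groups are spread sideways around each gene's middle. Gjb2 and Gjb6 lie 18600 bases apart, and Gjb2, at 18.1 to 41.8 FPKM, is read above Gjb6, at 0.0422 to 1.40, in all groups.

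The genes whose pattern was most like that of each member were listed by Pearson's r over the 8 libraries, which come as 4 groups of near-equal libraries, among 7551 genes. For Gja1 they included Pros1 (r = 0.9974), Ass1 (0.9969) and Rpsa (0.9954). Ass1, which encodes an enzyme of arginine synthesis, averaged 3.40, 6.24, 6.32 and 26.8 FPKM in PP sham, PPK sham, PP ADT and PPK ADT. For Gjb1 they were Aktip (r = 0.9916), Hist1h2bg (0.9904), D17Wsu92e (0.9869) and Hoxa10 (0.9862). For Gjb2 they were Kctd10 (0.9919), Ppp2ca (0.9916), Rgs5 (0.9907) and Frmd6 (0.9901). For Gjb6 they were Gna12 (0.9906), Nup98 (0.98), Appl1 (0.9761) and Xrn2 (0.9745), and for Gjb5 Sh3d19 (0.973), Sem1 (0.9708), U2af1 (0.9685) and Pom121 (0.9649). With 4 groups many genes share a shape, so these values are a description.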

How the data were processed

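FPKM values were computed by the authors and deposited as 1 table per library. Per the labels' protocols, RNA came from Trizol extraction, and TruSeq libraries were strand-specific. Per the submitters' processing notes, FastQC 0.11.2 and the build mm10 were used. For aligner, quantifier and annotation, the entry is "not given in the sources used here". Low FPKM values were not whole multiples of a read, so no reads were recovered.

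The 8 tables were joined on Ensembl identifiers, and symbols came from GENCODE M21 on GRCm38, for 55154 of 55335 identifiers. Log2(FPKM + 1) of the 14000 genes with at least 1 FPKM in at least 2 libraries was modelled with R 4.3.3 and its package limma 3.58.1. The fit had 4 group means and a mean-variance trend, with 4 residual degrees of freedom and 2.4 prior ones. P-values are two-sided and Benjamini-Hochberg adjusted over all genes tested. Tables and figures used Python 3.11.15, pandas 2.3.3, numpy 2.4.6 and matplotlib 3.10.9. The test was tried on simulated data. Promoter windows came from RefSeq on GRCm38.p6.

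The members and gene lists were chosen with earlier results of these data known. Named were all members, tested pannexins, up to 4 partner genes per comparison with the smallest adjusted p, and the 4 genes most like each member. Other genes named were further connexins, chromosome neighbours and cell type markers. Some genes and 1 allele that these rules and the labels name are not reported here, and the gene lists were used without them. Groups came from the labels. Libraries of different groups that carry the same letter had deviations from their group means that correlated at -0.00791 to 0.0566, so A and B were not treated as pairs. Alternatives were a pseudocount of 0.1, no filter, a mean of at least 5 FPKM, array weights, quantile normalization, median-of-ratios scaling, no trend, a replicate block, a fit to the compared groups alone, calls that need a log2 fold change of 1 or more, and each library left out. Organoid experiments named in the design text were not analysed here.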

Additional observations from a re-analysis of the deposited data

Results flagged for a closer look

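For 2 connexin genes, Gja1 and Gjb2, the genotype effect (PPK against PP) differed between ADT and sham mice, by the limma test of the difference of effects with n = 2 libraries per group. For Gja1 the effect in ADT minus that in sham was 2.48 on the log2 scale (limma adjusted p = 8.39e-06). For Gjb2 it was -0.57 (limma adjusted p = 0.000866). ADT and age changed together in these groups and cannot be told apart.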

How the results depend on the processing

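Of 351 values of the 4 tested connexin genes under the alternatives, 332 kept their direction and side of the threshold, and 15 no longer passed. A further 1 newly passed, for Gjb6, which was tested only through the PPK ADT libraries, and 3 changed sign without passing in either case. These 3 were the Gjb6 genotype effect in sham without PP sham B (0.0051), and the Gjb1 difference of effects without PPK sham B (0.069) or without PPK ADT A (0.051). Over the left-out libraries, these 2 values ranged from -0.31 to 0.0051 and from -0.37 to 0.069. Requiring a log2 fold change of at least 1 left 1 member called in place of 3 between genotypes in sham mice, and 1 in place of 2 for the difference of effects. It lowered the genes called from 4000 to 515 (genotypes in sham), 8340 to 2498 (genotypes in ADT), 6185 to 1214 (ADT in PP), 8765 to 2761 (ADT in PPK) and 7395 to 2944 (difference). A mean of at least 5 FPKM, which tests fewer genes, lowered them from 8340 to 4918, 6185 to 3933, 8765 to 5056 and 7395 to 4476 in the last 4. With the replicate block, members called, Gjb6 included, stayed at 3, 3, 4, 4 and 2, and no member's call changed. The Gja1 genotype effect in ADT ranged from 3.58 to 3.94 and that of Gjb1 in sham from -1.13 to -0.69. Without the filter, Gjb5 had log2 fold changes of 0.32 between genotypes in ADT (limma adjusted p = 0.039) and 0.41 with ADT in PPK (limma adjusted p = 0.0161), and passed in no other comparison. The depth behind each FPKM is unknown, which limits Gjb5 and Gjb6 most.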
